A study of Mus musculus with 7 samples.

Results

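Cell cycle and DNA replication genes are described here as 38 genes chosen by name from the duodenal expression table of a mouse study, out of 22987 genes listed. The study set duodenal lumen scrapings of C57BL/6 mice with the Nlrc4-T337S genotype (4 libraries) beside scrapings of wild-type C57BL/6 mice (3 libraries), all at 6 weeks of age. Nlrc4 encodes a sensor adaptor that assembles inflammasomes, also in intestinal epithelial cells, and T337S is a threonine-to-serine change in it that the series title writes for both alleles. No treatment, litter, sex or sequencing batch is given in the labels, and nothing says outright that each library came from a separate mouse, so p-values reflect only how these libraries vary, which may be technical. The submitters call the material duodenal epithelium, but a scraping holds the villus and whatever part of the crypts and underlying tissue comes with it. Expression was deposited as RPKM, a read count divided by transcript length and by mapped reads, which allows levels to be compared between genes.

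Cells of the intestinal epithelium divide in the crypts, from stem cells and from the transit-amplifying cells above them, and stop dividing as they move onto the villus. A dividing cell loads the Mcm helicase onto replication origins in G1, copies its DNA in S phase with the sliding clamp Pcna and newly made deoxynucleotides, and then builds a spindle and separates its chromosomes under cyclin B and Cdk1. Transcripts of the replication genes are controlled largely by E2F factors. Those of the mitotic genes are controlled largely by the DREAM and B-Myb-MuvB complexes, which bind a promoter element called CHR, and by NF-Y, which binds CCAAT boxes. In bulk tissue, fewer dividing cells and less of these RNAs per dividing cell cannot be told apart.

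The members were split, as their definition asks, into 9 S-phase genes (Mcm2 to Mcm7, Pcna, Rrm1 and Rrm2), 21 mitotic genes, and 8 others. RefSeq promoter windows, from 250 bases before to 50 after the transcription start (GRCm38.p6 table), were found for 31 of the 38 members as 33 windows, each of which matched the mm9 genome once and exactly. Gins2, Aurkb, Tpx2, Ccna2, Kif20a, Mcm4 and Ccnd1 had no window in the table. The windows were searched on both strands for an E2F site (TTTGGCGC or TTTCGCGC), CHR (TTTGAA or TTCGAA) and CCAAT. An E2F site on one strand can overlap one on the other, and TTCGAA is its own reverse complement. The E2F letters were in 4 of 9 S-phase windows (44.4%) and 1 of 18 mitotic windows (5.6%), against 0.8% of all 32851 windows. The CHR letters were in 15 of 18 mitotic windows (83.3%) and 2 of 9 S-phase windows (22.2%), against 19.2% of all windows. CCAAT was in all 9 S-phase windows and in 16 of 18 mitotic windows (88.9%), against 37.4% of all windows.

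The following 6 windows show these classes, 5′ to 3′ along the gene, with the matched letters of either strand in capitals. Mcm5 and Mcm6 are helicase subunits with E2F sites and CCAAT boxes, of which Mcm5 was among the members that differed most between genotypes and Mcm6 among those that differed least. Cdk1 and Cdc20 are mitotic regulators with CHR and CCAAT, and Cdk1 is also the only mitotic member with a window that held an E2F site. Birc5 and Nusap1 are the only mitotic members with a window that held none of the 3 motifs, and so have no capitals.
Mcm5, mm9 chr8:77633158-77633457, plus strand: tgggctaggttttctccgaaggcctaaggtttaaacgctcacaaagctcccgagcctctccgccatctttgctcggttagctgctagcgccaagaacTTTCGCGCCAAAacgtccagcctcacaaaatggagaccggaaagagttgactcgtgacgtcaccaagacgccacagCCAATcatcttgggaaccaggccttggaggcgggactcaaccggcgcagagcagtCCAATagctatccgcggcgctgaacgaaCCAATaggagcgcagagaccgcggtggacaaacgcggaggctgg
Mcm6, mm9 chr1:130256233-130256532, minus strand: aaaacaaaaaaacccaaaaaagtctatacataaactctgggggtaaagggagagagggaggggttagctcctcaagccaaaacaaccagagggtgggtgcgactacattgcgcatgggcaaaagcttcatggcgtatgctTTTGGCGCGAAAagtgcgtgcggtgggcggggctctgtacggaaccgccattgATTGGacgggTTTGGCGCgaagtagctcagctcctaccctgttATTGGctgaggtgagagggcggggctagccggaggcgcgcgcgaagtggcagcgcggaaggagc
Cdk1, mm9 chr10:68815611-68815910, minus strand: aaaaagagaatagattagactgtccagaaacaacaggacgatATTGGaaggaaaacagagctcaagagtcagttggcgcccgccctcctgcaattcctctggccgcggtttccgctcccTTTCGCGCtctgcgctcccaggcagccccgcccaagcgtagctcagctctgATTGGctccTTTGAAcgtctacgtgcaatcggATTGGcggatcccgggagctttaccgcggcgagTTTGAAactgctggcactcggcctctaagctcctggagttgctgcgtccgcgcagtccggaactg
Cdc20, mm9 chr4:118109899-118110198, minus strand: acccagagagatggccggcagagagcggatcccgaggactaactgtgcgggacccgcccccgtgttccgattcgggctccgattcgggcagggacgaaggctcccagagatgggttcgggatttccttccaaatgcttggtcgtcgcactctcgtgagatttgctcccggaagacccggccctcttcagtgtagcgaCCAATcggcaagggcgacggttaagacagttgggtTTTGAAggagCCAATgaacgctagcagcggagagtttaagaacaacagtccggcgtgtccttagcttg
Birc5, mm9 chr11:117710301-117710600, plus strand: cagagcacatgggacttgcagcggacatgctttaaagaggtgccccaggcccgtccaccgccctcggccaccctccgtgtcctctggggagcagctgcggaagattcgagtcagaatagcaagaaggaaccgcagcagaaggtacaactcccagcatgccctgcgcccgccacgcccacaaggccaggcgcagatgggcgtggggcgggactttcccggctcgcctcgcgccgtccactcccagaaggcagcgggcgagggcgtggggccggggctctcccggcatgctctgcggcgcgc
Nusap1, mm9 chr2:119443784-119444083, plus strand: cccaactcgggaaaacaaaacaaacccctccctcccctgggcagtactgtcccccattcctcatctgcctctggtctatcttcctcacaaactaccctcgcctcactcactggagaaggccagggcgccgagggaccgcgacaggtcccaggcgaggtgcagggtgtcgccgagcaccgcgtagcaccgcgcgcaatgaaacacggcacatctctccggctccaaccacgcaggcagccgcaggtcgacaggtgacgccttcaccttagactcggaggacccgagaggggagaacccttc

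In 3 of the 4 Nlrc4-T337S libraries most cell cycle transcripts stood below every wild-type library, with Cdk1 for example at 28.6% of the wild-type mean, and in the other library, replicate 2, they did not. Replicates 1, 3 and 4 were all below every wild-type library in 31 of the 38 members. Taken singly, these libraries were below every wild-type library in 62.5%, 69.2% and 43% of all tested genes. The joint share over all genes was not counted and cannot exceed 43%. Replicate 2 lay within the wild-type range in 14, above it in 14 and below it in 10. It was below wild type in 35.9% of all tested genes, and its share above was not counted. With all 7 libraries no member passed the test between genotypes. Values were compared as log2(RPKM + 0.5) with limma over the 10987 genes that averaged at least 0.5 RPKM, with Benjamini-Hochberg adjustment over all of them at 0.05. Of the 38 members 35 were tested, while Bub1, Cdc6 and Cenpf were below the floor. Aurkb and Uhrf1 averaged under 0.5 RPKM in Nlrc4-T337S and passed the floor through wild type. The count of members called lower was 0 of 35, beside 0.592% of all genes, and the count called higher was also 0 of 35, beside 0.3% of all genes. All 35 log2 changes were negative, beside 78% of all genes, and 24 had an unadjusted p under 0.05 and were lower, beside 20.4% of all genes. With equal RPKM sums, median-of-ratios scaling and quantile normalization, 33, 32 and 31 of the 35 were negative. The share of all genes was not counted under these scalings, where the median log2 change of all genes was -0.099, 0.05 and 0.027. The median log2 change was -0.63 over the 35 tested members and -0.15 over all genes, which leaves -0.48 relative to all genes. With no floor all 38 changes were negative, beside 74.6% of genes. In 7 of 35 members every Nlrc4-T337S library lay below every wild-type library, beside 17.3% of all genes, so that count is close to the background. In 0 of 35 they lay above, beside 1.97%.

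The libraries were unlike each other. Replicate 1 was below all wild-type libraries in 34 of 35 tested members, beside 62.5% of all genes. Replicate 3 was below them in 31 members, beside 69.2%, and replicate 4 in 32, beside 43%. Replicate 2 was below them in 9 members, beside 35.9%. Replicate 2 was also the shallowest library, with 45032119 quality-passing reads, against 72343694 to 84724060 in the other Nlrc4-T337S libraries and 73873054 to 95732587 in wild type; the part of depth in its levels was not tested. Without replicate 2, limma called 27 of 35 members lower and 0 higher, beside 11.7% and 0.674% of all genes. In 8 of the 27, namely Mcm2, Mcm3, Gins2, Bub1b, Tpx2, Kif20a, Aurkb and Uhrf1, the mean of the 3 remaining Nlrc4-T337S libraries was under 0.5 RPKM, so these passed the floor through wild type and the count is a description. Leaving out any other library in turn gave 0 called members. The share of all genes called lower was then 0.126%, 0.163% and 0.127% without Nlrc4-T337S replicates 1, 3 and 4, and 0.0274%, 0.0367% and 0.593% without wild-type replicates 1, 2 and 3. Array weights, which give less weight to libraries that vary more, called Mcm2, Cdc20 and Cdca8 lower, beside 2.61% of all genes.

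Other settings also called 0 members. The share of all genes called lower was 0.455% and 0.628% with pseudocounts of 0.1 and 1, 0.105% with no floor and 0.348% with a floor of 2 RPKM. It was 0.591% with equal RPKM sums, 0.583% with median-of-ratios scaling, 0.537% with quantile normalization and 0.674% with robust estimation.

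**Figure D1:**
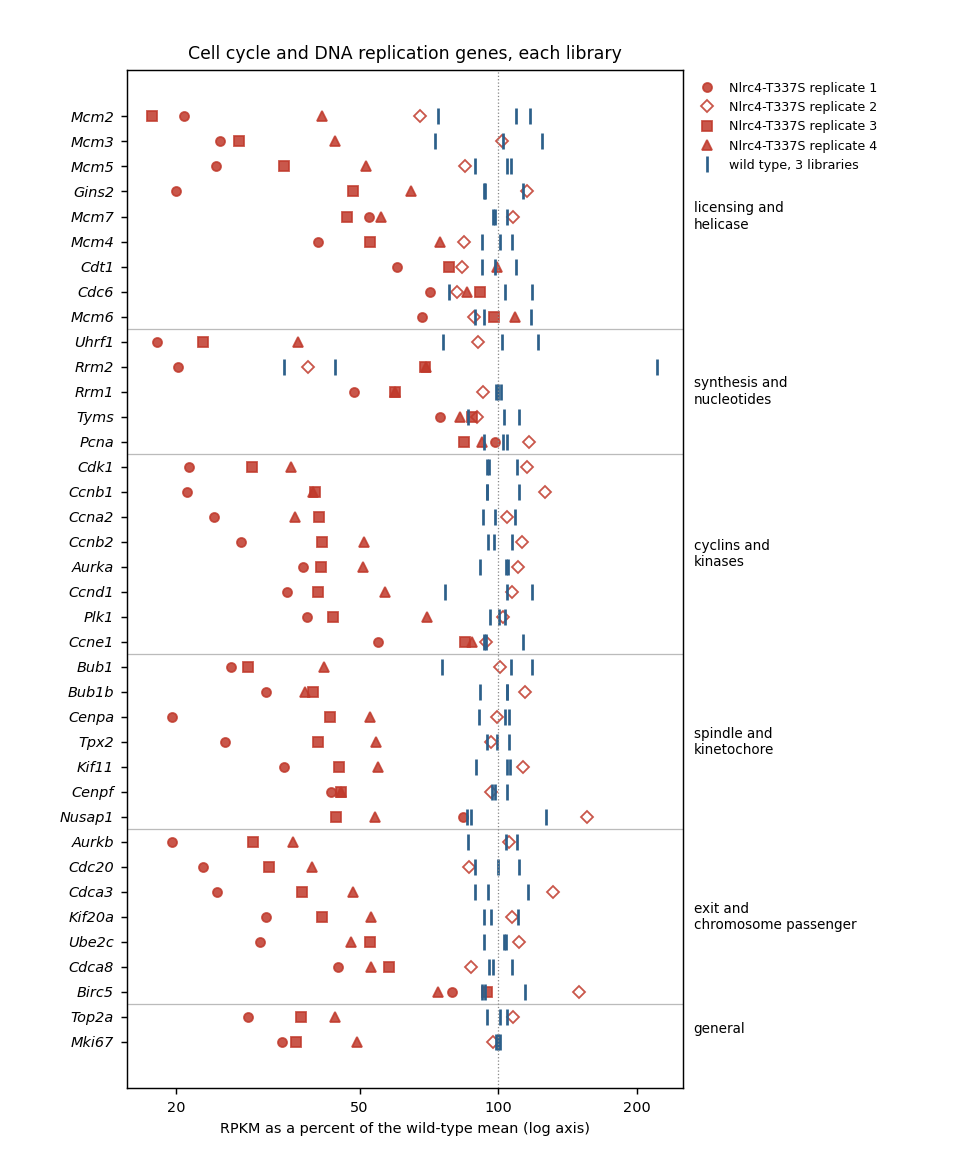
RPKM of each of the 38 members in each library, as a percent of the gene's wild-type mean on a log axis, grouped by role. Filled red symbols are Nlrc4-T337S replicates 1, 3 and 4, open diamonds are Nlrc4-T337S replicate 2, and blue bars are the 3 wild-type libraries. The filled symbols all lie left of the blue bars in 31 members, and the open diamond lies left of them in 10, within their range in 14 and right of them in 14, whereas Pcna, Mcm6, Tyms and Birc5 show little separation. Over all tested genes, replicate 4 was below every wild-type library in 43% and replicate 2 in 35.9%.

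The licensing and helicase genes load and activate the replicative helicase. Mcm2 (chromosome 6, 88833469 to 88848774, mm9), a helicase subunit, had the smallest p of all members. It was at 0.334, 1.09, 0.285 and 0.667 RPKM in Nlrc4-T337S replicates 1 to 4, against 1.88, 1.76 and 1.19 in wild-type replicates 1 to 3. The groups did not overlap, and Mcm2 averaged 0.594 ± 0.372 RPKM in Nlrc4-T337S, against 1.61 ± 0.370 in wild type (SD over 4 and 3 libraries, as throughout). The log2 change was -0.99 (SE 0.25), with limma adjusted p = 0.105 after Benjamini-Hochberg adjustment. Mcm5 (chromosome 8, 77633427 to 77652338), whose E2F sites are printed above, was at 0.443, 1.54, 0.623 and 0.938 RPKM in Nlrc4-T337S, against 1.90, 1.93 and 1.62 in wild type. These groups did not overlap either, although replicate 2 came within 0.1 RPKM of the lowest wild-type library (log2 change -0.80, SE 0.24, limma adjusted p = 0.137). Mcm4 was another helicase gene without overlap, at most 1.92 RPKM in Nlrc4-T337S, against a wild-type mean of 2.28 ± 0.172. Mcm3 and Mcm7 overlapped through replicate 2 alone, with log2 changes of -0.72 and -0.60. Exons of Mcm7 share 321 bases with Ap4m1 and 64 with Cops6 on the other strand, and the kit did not mark strand.

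Mcm6 (chromosome 1, 130228168 to 130256233) departed from the other helicase subunits although all 6 proteins work as one ring. It stood at 3.56, 4.62, 5.11 and 5.68 RPKM in Nlrc4-T337S, against 4.85, 4.65 and 6.14 in wild type, so the groups overlapped. Its log2 change was -0.13 with a 95% interval of -0.49 to 0.23 (limma adjusted p = 0.648). It was -0.12 without replicate 2, and its sign turned positive with median-of-ratios scaling and quantile normalization. Its level was the highest of the licensing genes in wild type, at 5.21 ± 0.806 RPKM, near the 4.87 ± 0.183 of Mcm7. Its neighbour Lct, the lactase gene, lies on the same strand 3273 bases away and was at 198, 203, 209 and 258 RPKM in Nlrc4-T337S, against 267, 265 and 229 in wild type; whether reads from Lct reach the Mcm6 count was not tested.

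Cdt1, the loader of the helicase, was at 1.41, 1.95, 1.83 and 2.33 RPKM in Nlrc4-T337S, against 2.56, 2.31 and 2.16 in wild type, overlapping through replicate 4 (log2 change -0.27, SE 0.14). Cdc6, its partner in loading, was below the floor at 0.384 ± 0.0392 RPKM in Nlrc4-T337S, against 0.467 ± 0.0958 in wild type, with overlap. Gins2, a subunit of the active helicase, was at 0.213, 1.23, 0.515 and 0.688 RPKM in Nlrc4-T337S, against 1.21, 0.998 and 0.990 in wild type. However, 67.3% of its exonic bases overlap Gse1 on the other strand, so its counts are uncertain. Without replicate 2, 6 of the 8 tested licensing genes passed as lower, all but Mcm6 and Cdt1, beside 11.7% of all genes. Of those that passed, Mcm2, Mcm3 and Gins2 reached the floor only through wild type in that fit, so the count is a description.

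The synthesis and nucleotide genes held both low and level members. Pcna (chromosome 2, 132074898 to 132079050), the sliding clamp of the DNA polymerases, was by far the most abundant member. It was at 52.3, 62.0, 44.7 and 49.0 RPKM in Nlrc4-T337S, against 55.5, 49.4 and 54.5 in wild type, and the groups overlapped fully. Its log2 change was -0.04, with a 95% interval of -0.32 to 0.24 (limma adjusted p = 0.870), and its sign turned positive under 3 other scalings. Pcna has pseudogene copies, and the sources used here do not say how shared reads were counted.

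Rrm1 and Rrm2 encode the large and small subunits of ribonucleotide reductase, which makes deoxynucleotides, and their transcripts had different orders over the libraries. Rrm1 (chromosome 7, 109590209 to 109618285) was at 1.41, 2.69, 1.74 and 1.73 RPKM in Nlrc4-T337S, against 2.94, 2.87 and 2.91 in wild type. The groups did not overlap and wild type was very tight (log2 change -0.53, SE 0.17, limma adjusted p = 0.141). Rrm2 (chromosome 12, 25393106 to 25399011), shown because its values stood out once seen, was at 1.48, 2.84, 5.10 and 5.12 RPKM in Nlrc4-T337S, against 2.51, 3.25 and 16.2 in wild type. Its high values were those of the last 3 libraries in the submitters' sample order, Nlrc4-T337S replicates 3 and 4 and wild-type replicate 3, rather than those of a genotype. Its log2 change was -0.60 with a 95% interval of -1.94 to 0.75, and 0.18 without wild-type replicate 3. Mcm6 was likewise above 5 RPKM in these 3 libraries and below it in the first 4.

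Uhrf1, which carries DNA methylation through replication, was at 0.212, 1.05, 0.267 and 0.429 RPKM in Nlrc4-T337S, against 1.42, 1.19 and 0.887 in wild type. Replicate 2 alone lay within the wild-type range (log2 change -0.81, SE 0.26, limma adjusted p = 0.150). Tyms, the thymidylate synthase, differed little, at 4.04, 4.87, 4.75 and 4.48 RPKM in Nlrc4-T337S, against 4.67, 6.02 and 5.57 in wild type (log2 change -0.23, 95% interval -0.49 to 0.03).

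Among cyclins and their kinases, the S, G2 and M phase genes had a common shape. Ccna2, the cyclin of S phase and G2, was at 0.802, 3.47, 1.36 and 1.20 RPKM in Nlrc4-T337S, against 3.27, 3.61 and 3.08 in wild type. Replicates 1, 3 and 4 were at 33.8% of the wild-type mean and replicate 2 at 104% (log2 change -0.92, SE 0.32, limma adjusted p = 0.162). Its exons share 14.6% of their bases with Exosc9 on the other strand. Cdk1 (chromosome 10, 68799383 to 68815686), the kinase that drives entry into mitosis, was at 0.383, 2.09, 0.527 and 0.639 RPKM in Nlrc4-T337S, against 1.98, 1.71 and 1.72 in wild type. Here replicate 2 exceeded every wild-type library while the other 3 averaged 28.6% of the wild-type mean (log2 change -0.85, SE 0.33, limma adjusted p = 0.185). Without replicate 2, the log2 change of Cdk1 was -1.19 (SE 0.13). That value is a description only, since the library left out is the one that stood apart for this gene.

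Ccnb2, one of the 2 B-type cyclins that activate Cdk1, was at 0.958, 3.90, 1.43 and 1.77 RPKM in Nlrc4-T337S, against 3.38, 3.71 and 3.29 in wild type, again with replicate 2 highest of all. Ccnb1, the other, had log2 change -0.78 (SE 0.35), with replicate 2 at 127% of the wild-type mean and the other 3 at 33.6%. Aurka and Plk1, kinases of spindle assembly, had log2 changes of -0.64 and -0.55. The G1 cyclins differed from each other. Ccnd1, which couples growth signals to the cycle, was at 0.905, 2.78, 1.05 and 1.47 RPKM in Nlrc4-T337S, against 3.08, 2.72 and 1.99 in wild type (log2 change -0.66, SE 0.28), although 21.3% of its exonic bases overlap Oraov1. Ccne1, the cyclin that starts S phase, was at 0.581 ± 0.127 RPKM in Nlrc4-T337S, against 0.723 ± 0.0826 in wild type (log2 change -0.18, 95% interval -0.48 to 0.12, positive under quantile normalization).

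The spindle and kinetochore genes had replicate 2 within or above the wild-type range in all 5 tested members. Tpx2, which nucleates spindle microtubules, was at 0.273, 1.03, 0.436 and 0.580 RPKM in Nlrc4-T337S, against 1.07, 1.13 and 1.01 in wild type (log2 change -0.59, SE 0.21, limma adjusted p = 0.170). Cenpa, the histone variant that marks centromeres, was at 0.518, 2.63, 1.14 and 1.39 RPKM in Nlrc4-T337S, against 2.74, 2.80 and 2.40 in wild type (log2 change -0.82, SE 0.31, limma adjusted p = 0.182). Kif11, the motor that separates spindle poles, and Bub1b, a checkpoint kinase, had log2 changes of -0.56 and -0.60. Bub1, its paralogue, and Cenpf, a large kinetochore protein, were below the floor. They averaged 0.253 ± 0.179 and 0.253 ± 0.112 RPKM in Nlrc4-T337S, against 0.513 ± 0.114 and 0.438 ± 0.0173 in wild type. Nusap1, a microtubule-bundling protein whose promoter is printed above, was at 1.63, 3.03, 0.860 and 1.05 RPKM in Nlrc4-T337S, against 1.66, 1.70 and 2.47 in wild type. Its replicate 1 lay just under the wild-type range, unlike replicates 3 and 4 (log2 change -0.27, 95% interval -0.96 to 0.41).

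After Mcm2, the smallest p among members were those of Cdca8 and Cdc20, in the group of mitotic exit and the chromosome passenger complex. Cdca8, a passenger complex subunit, was at 1.42, 2.75, 1.83 and 1.67 RPKM in Nlrc4-T337S, against 3.39, 3.08 and 3.01 in wild type, without overlap (log2 change -0.63, SE 0.17, limma adjusted p = 0.118). Cdc20 (chromosome 4, 118105506 to 118109957), the activator of the anaphase-promoting complex, was at 0.541, 2.05, 0.750 and 0.932 RPKM in Nlrc4-T337S, against 2.62, 2.36 and 2.11 in wild type. These groups did not overlap, by a margin of 0.1 RPKM or less between replicate 2 and wild-type replicate 3 (log2 change -0.95, SE 0.27, limma adjusted p = 0.122). Ube2c, the conjugating enzyme of the same complex, was the most abundant of these genes, at 1.81, 6.59, 3.12 and 2.85 RPKM in Nlrc4-T337S, against 6.10, 5.53 and 6.19 in wild type. Replicate 2 was the highest library for it (log2 change -0.78, SE 0.31, limma adjusted p = 0.198).

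Aurkb, the kinase of the passenger complex, had log2 change -0.67 (SE 0.25), and Kif20a, a motor of cytokinesis, -0.51 (SE 0.21), with 32.3% of its exonic bases overlapping Cdc23. Cdca3, a regulator of mitotic entry, was at 1.21, 6.46, 1.84 and 2.38 RPKM in Nlrc4-T337S, against 5.71, 4.38 and 4.69 in wild type, so its spread within Nlrc4-T337S exceeded the difference between group means. Birc5, survivin, is also a passenger subunit but did not follow Cdca8 and Aurkb. It was at 2.19, 4.14, 2.61 and 2.05 RPKM in Nlrc4-T337S, against 3.16, 2.54 and 2.58 in wild type, with a log2 change of -0.04 (95% interval -0.50 to 0.42) that turned positive under 3 other scalings. Replicate 2 was at 150% of the wild-type mean for Birc5 and the other 3 libraries at 82.7%.

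Mki67 and Top2a, the 2 general markers of proliferating cells, were counted with the mitotic set. Mki67 (chromosome 7, 142881471 to 142908062), the Ki-67 protein of dividing nuclei, was at 1.00, 2.89, 1.08 and 1.46 RPKM in Nlrc4-T337S, against 2.93, 2.99 and 2.96 in wild type. The wild-type libraries spanned 0.1 RPKM or less, and replicate 2 lay just under them (log2 change -0.80, SE 0.26, limma adjusted p = 0.149). Top2a, the topoisomerase that untangles chromosomes, was at 1.24, 4.66, 1.62 and 1.91 RPKM in Nlrc4-T337S, against 4.51, 4.36 and 4.09 in wild type, with replicate 2 highest (log2 change -0.89, SE 0.32, limma adjusted p = 0.169).

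**Figure D2:**
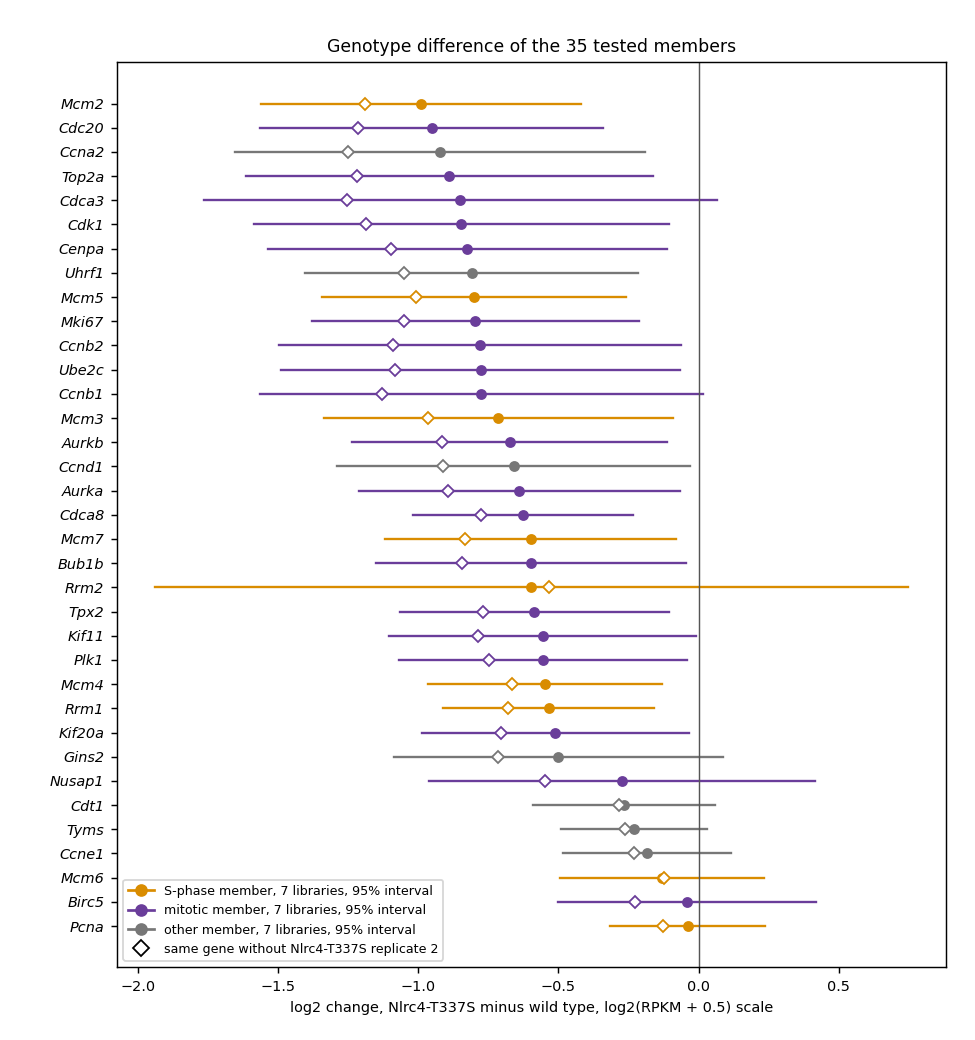
Log2 change of the 35 tested members, Nlrc4-T337S minus wild type on the log2(RPKM + 0.5) scale, with 95% intervals from limma (filled circles and lines) and the change without Nlrc4-T337S replicate 2 (open diamonds). Colours mark S-phase, mitotic and other members. Most diamonds lie left of their circles, while those of Mcm6, Rrm2, Cdt1 and Tyms lie close to them.

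S-phase and mitotic members had similar median changes, while their values differed in Nlrc4-T337S replicate 2. The median log2 change was -0.60 over the 9 S-phase members and -0.67 over the 19 tested mitotic members, or -0.45 and -0.53 relative to all genes. The S-phase minus mitotic difference was 0.08, smaller than the SD of 0.17 between libraries for the same quantity. Per library, the S-phase median lay at -0.96, -0.15, -0.71 and -0.61 in Nlrc4-T337S replicates 1 to 4, on a scale where the wild-type mean of each gene is 0, and between -0.02 and 0.04 in wild type. The mitotic median lay at -1.08, 0.12, -0.89 and -0.78 in Nlrc4-T337S and between -0.06 and 0.05 in wild type. So the S-phase set was the less lowered of the pair in replicates 1, 3 and 4, by 0.11, 0.19 and 0.18, and the lower of the pair in replicate 2, by 0.27. The median of Mcm2 to Mcm7 alone was -1.04, -0.16, -0.99 and -0.71 in Nlrc4-T337S replicates 1 to 4. That median lay above the mitotic one in replicates 1 and 4 and below it in replicates 2 and 3. No test was made on these set medians, since the members were chosen with results known.

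At the level of single genes, replicate 2 was below every wild-type library in 5 of 9 S-phase members and in 3 of 19 tested mitotic members, beside 35.9% of all genes. For Mcm2, Mcm4 and Mcm5 it stood at 67.7%, 84.3% and 84.7% of the wild-type mean. For Ccnb1, Cdca3 and Cdk1 it stood at 127%, 131% and 116%. Members of both sets also went the other way. Among S-phase members, Pcna, Mcm7 and Mcm3 stood at 117%, 108% and 102%. Among mitotic members, Cdc20, Cdca8, Cenpf and Mki67 stood at 86.5%, 87.1%, 96.2% and 97.6%. Without replicate 2, 6 of 9 S-phase members and 17 of 19 tested mitotic members passed as lower, beside 11.7% of all genes, and the medians were -0.68 and -0.92. Of those that passed, Mcm2, Mcm3, Bub1b, Aurkb, Kif20a and Tpx2 reached the floor only through wild type in that fit, so the counts are a description. The S-phase members that did not pass were Pcna, Mcm6 and Rrm2, and the mitotic ones were Birc5 and Nusap1. The 6 Mcm genes summed to 8.14, 15.7, 9.87 and 12.3 RPKM in Nlrc4-T337S, against 17.1, 17.2 and 16.9 in wild type, so all 4 Nlrc4-T337S libraries lay below wild type in that sum. All 9 S-phase genes, with Pcna, Rrm1 and Rrm2, summed to 63.4, 83.3, 61.4 and 68.1 RPKM in Nlrc4-T337S, against 78.1, 72.7 and 90.5 in wild type. In that sum, of which Pcna alone was 44.7 to 62.0 RPKM, replicate 2 lay within the wild-type range. The 21 mitotic genes summed to 16.9, 55.4, 22.1 and 24.6 RPKM in Nlrc4-T337S, against 51.7, 48.1 and 47.9 in wild type, where replicate 2 lay above.

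**Figure D3:**
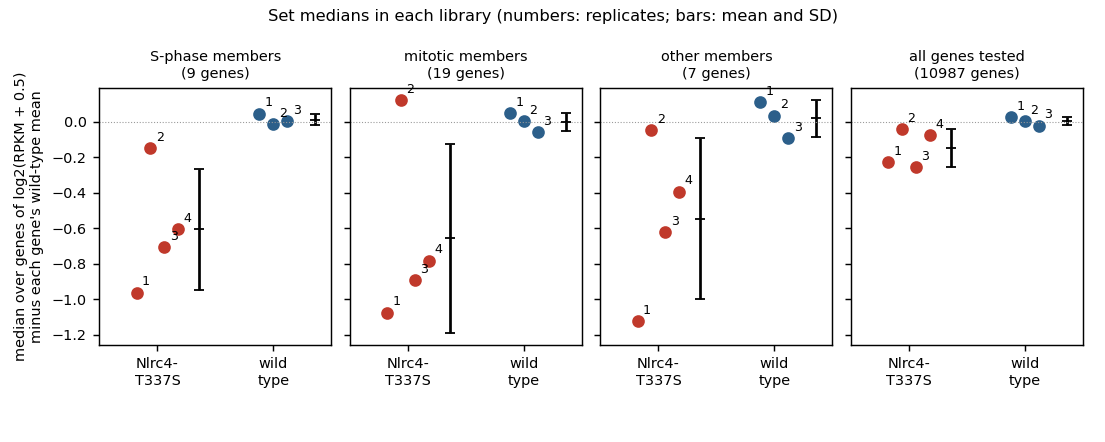
Median over genes of log2(RPKM + 0.5) minus each gene's wild-type mean, for S-phase, mitotic and other members and for all 10987 tested genes, in each Nlrc4-T337S (red) and wild-type (blue) library. Numbers give the replicate and bars the mean and SD. In Nlrc4-T337S, replicate 2 lies at -0.15 for the S-phase and 0.12 for the mitotic members, and the other 3 lie between -0.61 and -1.08 for these 2 sets.

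The promoter classes can be set beside these changes as a description. All 15 tested members with a CHR match had log2 changes between -0.99 and -0.55, and all 15 passed as lower without replicate 2, beside 11.7% of all genes. The 13 tested members whose windows held no CHR ranged between -0.81 and -0.04, and 5 of them passed without replicate 2. Of those that passed, Mcm2 and Bub1b with CHR, and Mcm3 and Uhrf1 without it, reached the floor only through wild type in that fit. The 6 members with no CCAAT in their windows were Birc5, Nusap1, Tyms, Ccne1, Cdt1 and Cdc6, of which 5 were tested. Their log2 changes ranged between -0.27 and -0.04, and none of the 5 passed without replicate 2. The reverse did not hold, since Pcna, Rrm2 and Mcm6 have CCAAT and did not pass either. A missing match says only that these letters are not in the window.

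**Figure D4:**
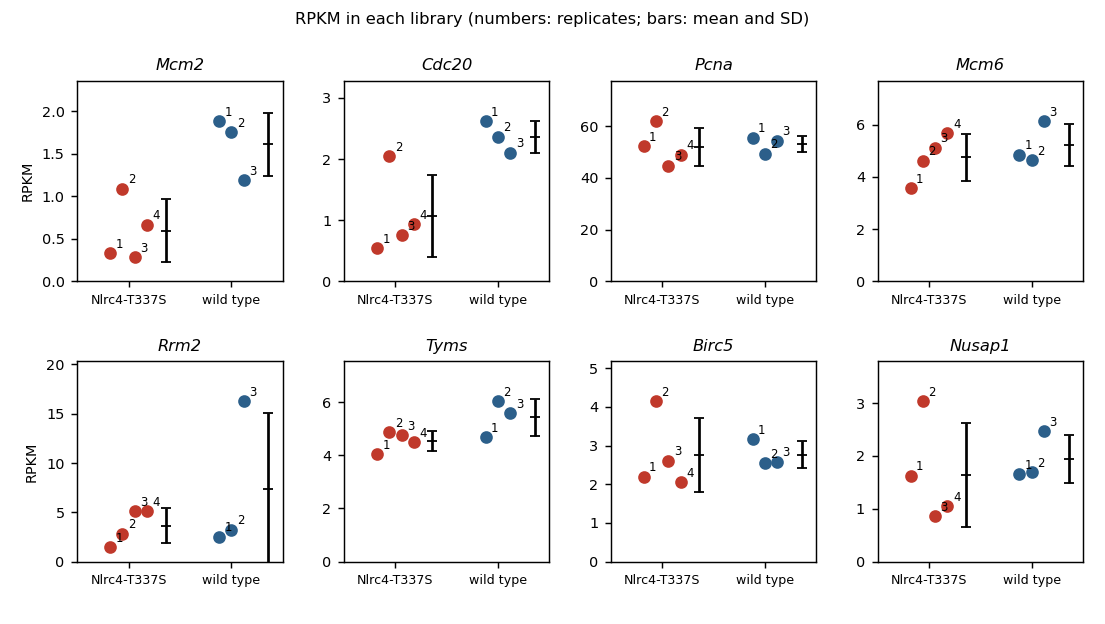
RPKM in each Nlrc4-T337S (red) and wild-type (blue) library for Mcm2 and Cdc20, which had large differences, and for 6 members that did not pass with or without Nlrc4-T337S replicate 2. Numbers give the replicate and bars the mean and SD, the bar of Rrm2 in wild type being cut at 0. Rrm2 reached 16.2 RPKM in wild-type replicate 3 alone, and Pcna stayed between 44.7 and 62.0 RPKM in all 7 libraries.

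The submitters' sample order places Nlrc4-T337S replicates 1 and 2 and wild-type replicates 1 and 2 first, and the other 3 libraries last; what this order stands for is not stated. Within the first 4 libraries, 32 of 35 tested members were lower in Nlrc4-T337S, beside 74.1% of all genes, with a median log2 difference of -0.55. The exceptions were Pcna, Birc5 and Nusap1, at 0.12, 0.08 and 0.33. Within the last 3, all 35 were lower, beside 73.3% of all genes, with a median of -0.72, though 1 wild-type library allows no test there. With a term for that order, added after seeing the data, limma again called 0 members, beside 0.956% of all genes lower.

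Other genes of the same machinery, from lists drawn up beside the members, were also mostly negative. That held for 31 of 32 tested replication genes and 33 of 35 tested mitotic genes, beside 78% of all genes. Of 40 other replication genes 32 were tested, 0 passed in either direction, and the median log2 change was -0.32, or -0.18 relative to all genes. The smallest p was that of Pold2, a subunit of DNA polymerase delta, at 1.16, 2.81, 1.15 and 1.61 RPKM in Nlrc4-T337S, against 3.70, 3.42 and 3.53 in wild type (log2 change -0.95, SE 0.23, limma adjusted p = 0.0990). Orc2, of the origin recognition complex, averaged 0.550 ± 0.0814 RPKM in Nlrc4-T337S, against 0.967 ± 0.145 in wild type. Of 58 other mitotic genes 35 were tested, 0 passed and the median was -0.44, or -0.29 relative to all genes. Pbk, a mitotic kinase, was at 0.204, 1.47, 0.371 and 0.555 RPKM in Nlrc4-T337S, against 1.61, 1.68 and 1.54 in wild type, without overlap (limma adjusted p = 0.141). Kif23, a motor of the central spindle, overlapped through replicate 2 (log2 change -0.76, SE 0.24). Without replicate 2, 14 of 32 replication genes and 22 of 34 mitotic genes were called lower and 0 higher, beside 11.7% and 0.674% of all genes. How many of these genes reached the floor only through wild type was not counted.

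Those regulators of the members that were tested had medians closer to that of all genes, -0.15, than the -0.63 of the members. Of 15 tested inhibitors of the cycle 0 passed, the median was -0.07, and 8 were negative, beside 78% of all genes. Btg2, an antiproliferative factor, averaged 39.2 ± 5.56 RPKM in Nlrc4-T337S, against 30.3 ± 2.26 in wild type. Cdkn2b, an inhibitor of the cyclin D kinases, averaged 15.0 ± 2.30 RPKM in Nlrc4-T337S, against 21.7 ± 4.16 in wild type, and neither gene passed. Of 23 E2F, Rb and DREAM genes 17 were tested, 0 passed and the median was -0.20. E2f6 was at 0.994 ± 0.157 RPKM in Nlrc4-T337S, against 1.60 ± 0.116 in wild type. That median leaves out Mybl2, Foxm1, E2f7 and E2f8, which were below the floor. Their Nlrc4-T337S means were 47.3%, 50.1%, 43.0% and 51.6% of the wild-type means, without overlap between the groups. Groups were lower without overlap in 17.3% of all tested genes, and the share among genes below the floor was not counted. Levels this low are imprecise, with E2f7 at a wild-type mean of 0.085 RPKM. E2f1 and Mycn, also below the floor, overlapped. Trp53, the p53 gene, was at 2.07, 4.31, 2.80 and 3.36 RPKM in Nlrc4-T337S, against 5.49, 5.19 and 4.82 in wild type, without overlap (limma adjusted p = 0.124). Of 11 tested G1 cyclins and kinases 0 passed and the median was -0.36. Ccnd2, a D-type cyclin, was at 4.15, 5.37, 3.46 and 4.36 RPKM in Nlrc4-T337S, against 8.88, 8.59 and 6.22 in wild type, so that unlike Ccnd1 it did not overlap even in replicate 2 (log2 change -0.79, SE 0.16, limma adjusted p = 0.0678). Cdk2, the partner of cyclins E and A, had log2 change -0.50 (SE 0.17). Of 8 tested histone and chromatin assembly genes 0 passed and the median was -0.23, with Hells, a chromatin remodeller, at -0.63 and the histone H2afx at -0.52.

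Some markers of crypt and stromal cells were also lower in Nlrc4-T337S, beside 0.592% of all genes called lower, and their part in the result was not tested. The 10 crypt stem cell markers, of which 6 were tested and 1 passed, summed to 5.32 to 26.3 RPKM in Nlrc4-T337S, against 31.1 to 38.2 in wild type, with no marker at 0 in any library. Cdca7, which is in that list and is itself cell cycle-linked, fell to 1.79 ± 0.562 RPKM in Nlrc4-T337S, against 3.96 ± 0.333 in wild type (log2 change -0.99, SE 0.18, limma adjusted p = 0.0493). The 13 Paneth cell markers, of the crypt base, summed to 161 to 805 RPKM in Nlrc4-T337S, against 1252 to 1882 in wild type, and 3 passed as lower, among them Mmp7, a defensin-maturing protease (log2 change -1.86, SE 0.32). Of these 3, Pla2g2a averaged under 0.5 RPKM in Nlrc4-T337S and passed the floor through wild type. The 11 fibroblast, endothelium and smooth muscle markers summed to 2.92 to 8.72 RPKM in Nlrc4-T337S, against 13.3 to 30.2 in wild type. Of these markers 5 of 7 tested were called lower, among them Tagln (log2 change -1.42, SE 0.20) and Dcn (log2 change -1.89, SE 0.27). Of these 5, Dcn, Sparc and Acta2 averaged under 0.5 RPKM in Nlrc4-T337S and passed the floor through wild type. The 9 B cell and plasma cell markers, from cells that can divide too, summed to 107 to 318 RPKM in Nlrc4-T337S, against 304 to 722 in wild type, with 0 of 8 tested called and replicate 2 within the wild-type range of the sum.

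Enterocyte and T cell markers were not low. The 12 enterocyte markers, which define the labelled tissue, summed to 37994 to 56197 RPKM in Nlrc4-T337S, against 40833 to 52733 in wild type, with 0 of 12 called. Of the T cell markers 6 were tested and 1 passed as higher, beside 0.3% of all genes. That gene was Gzmb, at 75.0 ± 9.61 RPKM in Nlrc4-T337S, against 47.1 ± 1.53 in wild type. The T cell markers summed to 363 to 468 RPKM in Nlrc4-T337S, against 283 to 326 in wild type. In replicate 2 the median of the tested members was 0.05, at the wild-type level, while those of the stem cell, Paneth cell, stromal and B-lineage lists were -0.43, -0.83, -1.23 and -0.37. The lowest wild-type medians of these lists were -0.08, -0.34, -0.63 and -0.67, so replicate 2 lay below wild type in all but the B-lineage list. The corresponding medians in replicates 1, 3 and 4 were -1.08, -0.86 and -0.73 for the members and -1.40, -1.36 and -0.99 for the stem cell list.

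**Figure D5:**
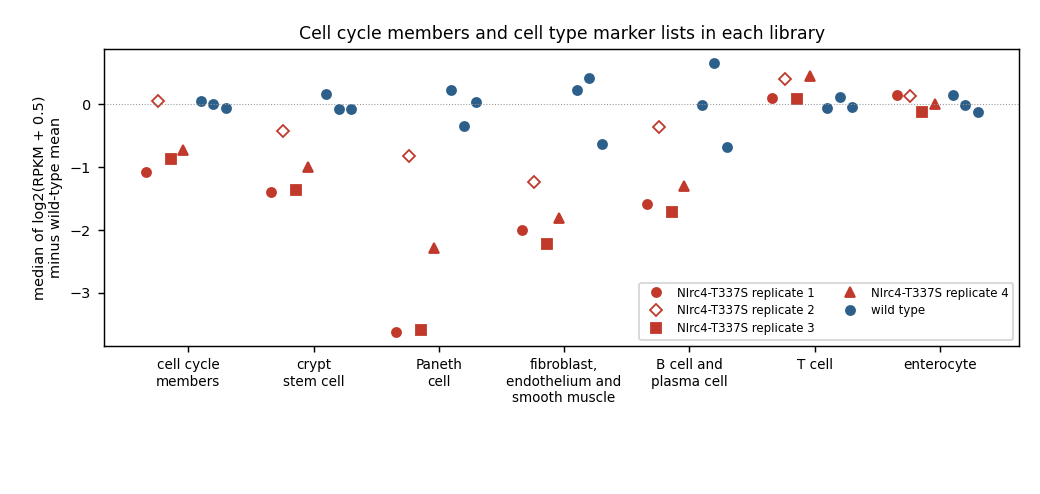
Median over genes of log2(RPKM + 0.5) minus each gene's wild-type mean in each library, for the tested cell cycle members and for 6 marker lists. Open diamonds are Nlrc4-T337S replicate 2, other red symbols replicates 1, 3 and 4, and blue circles wild type. Replicate 2 is at 0.05 for the members but at -0.83 for Paneth cell markers, and enterocyte markers stay near 0 in all libraries.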

How the data were processed

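RNA from duodenal scrapings was made into libraries with Illumina's TruSeq RNA Sample Prep Kit, as the labels' protocols state. That kit keeps no strand information. Per the file headers, the authors mapped reads to mm9 with TopHat 2.1.0 and used Partek 6.16.0606 to obtain RPKM. The sources used here give neither the gene models nor the rule for reads with several hits. Deposited counts of quality-passing reads were 45032119 to 95732587 per library, and a deposited fraction gave 84.2% to 97.1% of them as mapped, so that 1 read per kilobase was worth 0.0124 to 0.0251 RPKM. Intervals cover the spread between libraries only.

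Libraries were grouped by the genotype label, and replicate numbers follow accession order. RPKM is not a count, so log2(RPKM + 0.5) was tested with limma 3.58.1 in R 4.3.3 (mean-variance trend, two-sided, no covariate) over genes with a mean of at least 0.5 RPKM, with Benjamini-Hochberg adjustment at 0.05. Fold changes on this scale understate the change of low genes. The members, lists, tests and naming rule were chosen with earlier results of these data known. Values in every library were given for the 2 members with the smallest p and the most abundant one in each role, and for others that stood out once seen. From each other list, members that passed or the 2 with the smallest p were named. The model fit was checked on simulated data. Positions came from GENCODE vM1 (NCBIM37, which is mm9), and neighbours within 5 kb were read from it. Alternatives were other pseudocounts, filters, scalings, weights, thresholds, a wider S-phase set, leaving out each library and, added after seeing the data, sample order. Figures used matplotlib 3.10.9 in Python 3.11.15.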

Additional observations from a re-analysis of the deposited data

Results flagged for a closer look

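In 4 of the 38 members (10.5%, beside 2.05% of all tested genes) Nlrc4-T337S replicate 2 stood so far above the other 3 Nlrc4-T337S libraries that its gap to the nearest over the range of the group exceeded the 95% limit of Dixon's test for 4 values. The gap was 0.850 of the range for Cdk1, 0.856 for Mcm7, 0.900 for Bub1b and 0.958 for Cenpf. The 38 members include Bub1, Cdc6 and Cenpf, which were below the floor, whereas the 2.05% covers tested genes only. A library at either end passed the limit in 5.36% of all tested genes. Chance alone passes this limit in about 1 in 20 groups where any library at either end counts. For replicate 2 at the top alone the chance rate is lower and was not worked out. Genes of the same library are not independent. Wild type, with 3 libraries, was not tested in this way.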

How the results depend on the processing

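The count of called members, 0 of 35, was also 0 under the other pseudocounts, filters and scalings, robust estimation, a threshold of 0.10 and the sample order term. It was 3 with array weights, namely Mcm2, Cdc20 and Cdca8, and between 0 and 27 when single libraries were left out. Over the whole table, 33 genes were higher and 65 lower. These counts were 10 and 22 with no filter, 61 and 287 with array weights, and 62 and 250 at a threshold of 0.10. Higher genes numbered 79 with median-of-ratios scaling and 74 with quantile normalization, lower genes 28 at a floor of 2 RPKM and 105 with the sample order term. Leaving out single libraries gave 9 to 74 higher and 3 to 1280 lower. At the floor of 2 RPKM 15 members were tested and 15 were negative. The split of calls therefore moved with scaling: it was 79 higher and 64 lower with median-of-ratios scaling, and 74 and 59 with quantile normalization. The median log2 change of all genes was -0.15 as deposited, 0.05 and 0.027 under these scalings.

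The signs of members near 0 turned. Pcna was at 0.015 with equal RPKM sums, 0.18 with median-of-ratios scaling and 0.049 with quantile normalization. Birc5 was at 0.0031, 0.15 and 0.19 there, Mcm6 at 0.074 and 0.055 in the last 2, and Ccne1 at 0.068 with quantile normalization. Leaving out single libraries gave -0.126 to 0.029 for Pcna, -0.228 to 0.061 for Birc5 and -1.06 to 0.18 for Rrm2. The causes were not tested. The S-phase minus mitotic difference was between 0.0061 and 0.24 in the settings run, beside an SD of 0.17 between libraries, and the widened S-phase set gave 0.13. No paired analysis was possible because the labels number no replicates across genotypes and replicate numbers follow accession order. At the depths of these libraries 1 read per kilobase was worth 0.0124 to 0.0251 RPKM, which limits the precision of the lowest members.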
